A study of Mus musculus with 8 samples.

Results

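The open chromatin of normal cerebellar granule neuron progenitors (GNPs) was described from the peak list of the wild-type (WT) group alone. ATAC-seq peaks, intervals where the Tn5 transposase inserted sequencing adapters into accessible DNA more often than around them, were taken as members when they lay on chromosomes 1 to 19. These were 149637 of the 152984 WT peaks, and of 434365 peaks in the 3 lists of the series. No genotype was compared.

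The cells were GNPs of mouse cerebella at postnatal day 7, labelled as strain C56Bl6/J and as Chd7 wild type. Per the study's methods, GNPs were isolated on a Percoll gradient and pups were not separated by sex. In its other assays the study used Chd7 f/f mice without Cre as controls, so the WT cells may carry the floxed allele. The 3 WT libraries, of 8 in the series, were described as technical replicates and were pooled before peak calling, so that no value below has a replicate error and no test was made.

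GNPs divide in the outer layer of the postnatal cerebellum in response to Sonic hedgehog released by Purkinje cells, and then exit the cell cycle and migrate inward as granule neurons. Atoh1, a proneural basic helix-loop-helix factor, defines the lineage and holds the cells in the progenitor state. Such factors bind E-boxes, short sites of the form CANNTG, and differ in the central bases they prefer. Accessible chromatin is found at promoters, at enhancers bound by transcription factors and at insulators bound by CTCF, and an accessible site need not belong to a transcribed gene.

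The height of a peak is given as its pileup, the number of extended tags covering its summit, which is the position of greatest signal. Fold enrichment is the ratio of the pileup to that expected from the surroundings. The list was made from 50394313 tags, with 1 tag kept per position and strand and each tag extended to 90 bp, so that the pileup could not pass 180. Only 1 autosomal peak reached this ceiling, and 358 had a pileup of 100 or more. How far the limit of 1 tag per position and strand lowered such heights was not tested.

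The 5 genes chosen to mark the lineage all held peaks at a start site, and the windows around their summits show which E-boxes lay there. Atoh1 (ENSMUSG00000073043.5) held 3 peaks in its gene body plus 5 kb upstream, with pileups of 67, 59 and 31, and a further peak of 72 lay 3.26 kb past its end. Atoh1 protein is known to activate its own gene through an enhancer downstream of it. This downstream peak was taller than the promoter peak, and its 151 bp summit window held CAGCTG. Sequence is printed from GRCm38 (mm10), plus strand, in windows that overlap no annotated exon, with the E-box words CAGATG and CAGCTG, and the Zic-type word CAGCAGG, in capitals on either strand.
Atoh1 downstream peak, chr6:64734432-64734582: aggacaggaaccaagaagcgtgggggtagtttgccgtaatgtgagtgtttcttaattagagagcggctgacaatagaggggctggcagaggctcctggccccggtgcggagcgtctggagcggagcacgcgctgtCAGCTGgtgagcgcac
Pax6 intronic peak, chr2:105688509-105688659: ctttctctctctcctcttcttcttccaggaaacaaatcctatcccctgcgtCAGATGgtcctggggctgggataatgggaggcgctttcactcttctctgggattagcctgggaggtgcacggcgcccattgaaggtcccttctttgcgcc
Barhl1 downstream peak, chr2:28902404-28902554: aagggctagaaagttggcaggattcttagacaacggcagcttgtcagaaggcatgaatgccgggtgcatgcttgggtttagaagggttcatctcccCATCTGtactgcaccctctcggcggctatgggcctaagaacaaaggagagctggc

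These windows were not typical of the marker loci. Within 10 kb of the 5 genes there were 45 peaks, and 10 of their windows held any of the 3 words, namely CAGATG in 5, CAGCTG in 4 and CAGCAGG in 2. Over all peaks more than 1 kb from a start site, windows of the same length held any of the words in 49.2%, CAGATG in 27.0%, CAGCTG in 21.2% and CAGCAGG in 10.5%. The 45 peaks include peaks at start sites, so that the sets are not alike.

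The other markers differed in how their peaks were spread. Zic1, which encodes a zinc-finger factor of the lineage, had 6 peaks with the tallest at 83, 156 bp upstream of its start, and shares this stretch of chromosome 9 with its neighbour Zic4. Pax6, a paired-box factor of granule cells, had 11 peaks with the tallest, in the stretch counted, at 52 in 2 places. A further peak of 64 lay 8.67 kb upstream, in an exon of the non-coding gene Paupar. Gli1, a transcriptional effector and target of Sonic hedgehog, had 5 peaks up to 44, and Barhl1, a homeobox factor of the lineage, had 4 peaks up to 36. In the gene body plus 5 kb upstream, the tallest peaks of Zic1 and Atoh1 were as tall as or taller than 98.9% and 96.7% of all autosomal peaks, and that of Barhl1 than 84%. Peaks were thus found at all 5 markers, but 81.2% of coding genes held a peak, 70.8% had a summit at a start site, and so did 71.8% of the markers of other cell types given further below, so that these peaks do not identify the cell type.

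Most peaks were low and narrow, and most lay away from start sites. The pileup had a median of 16, with 11 at the lower and 28 at the upper quartile, and its percentile 99 was 84. The width had a median of 212 bp and reached 4084 bp. Together the peaks covered 46.5 Mb, or 1.94% of the assembled autosomal bases, at 62.5 peaks per Mb. The tallest 10% of the peaks held 28.1% of the summed pileup.

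Of the summits, 24331 lay within 1 kb of an annotated transcription start site (16.3%, Wilson 95% CI 16.1 to 16.4%), 6014 in other exons (4.02%), 58496 in introns (39.1%) and 60796 between genes (40.6%). All intervals given here count peaks or genes as if independent and so cover counting error alone, although adjacent peaks and PCR copies are related. Peaks at start sites were taller and wider than the rest, with a median pileup of 32 against 17 in exons, 16 in introns and 14 between genes. Their median width was 496 bp, against 191 to 199 bp elsewhere. Of exonic peaks, 42.1% lay in coding sequence. Intergenic summits lay a median of 42.8 kb from the nearest start site, and 9278 of them (15.3%) were more than 200 kb away.

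Height and location went together. Among the 1000 tallest peaks, 888 lay within 1 kb of a start site (88.8%, CI 86.7 to 90.6%), 39 in introns, 65 between genes and 8 in exons. The share at start sites fell from 56.1% in the tallest 10% of all peaks to 4.30% in the lowest 10%. This order depended on the measure of height, because 74.7% of the 1000 highest peaks by -log10 q and 35.6% of the 1000 highest by fold enrichment lay at start sites. Fold enrichment is relative to the surrounding 10 kb, and its median was 6.52 at start sites and 4.76 between genes.

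**Figure D1:**
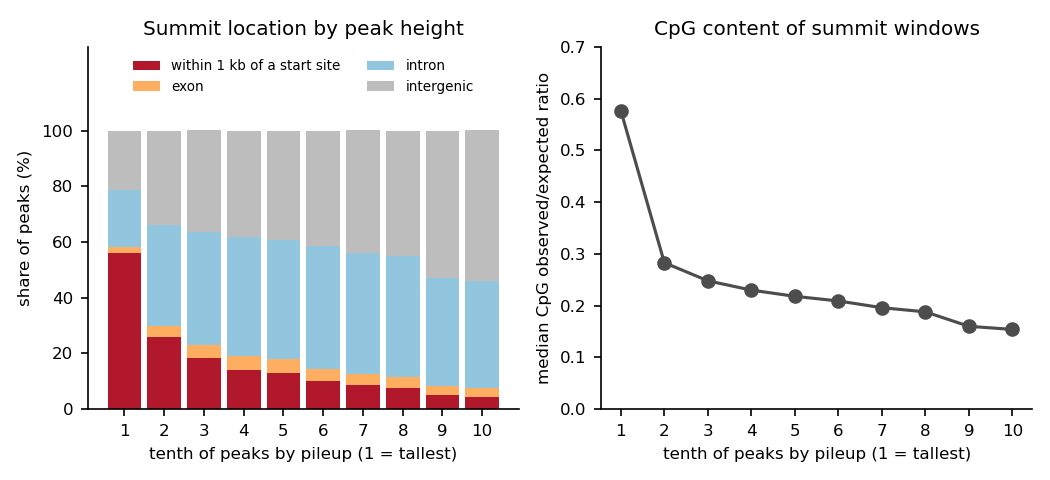
Left, the share of WT autosomal peaks (%) by summit location in each 10% group of peaks ordered by pileup, 1 being the tallest. Right, the median ratio of observed to expected CpG in the 201 bp around the summit, which was 0.577 in the tallest 10%, 0.283 in the next and 0.154 in the lowest.

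The tallest peaks lay in CpG-rich DNA. Median GC content of the summit windows was 59.2% in the tallest 10% and 49.8% in the lowest. By location, the median ratio of observed to expected CpG was 0.632 at start sites, 0.306 in exons, 0.195 in introns and 0.178 between genes. GC content also affects PCR and tagmentation, and its part in the pileup was not tested.

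Summits were concentrated just upstream of the start sites. Of the 24331 summits within 1 kb, 33.1% lay in the 100 bp before the nearest start and 16.1% in the 100 bp after it. The median pileup was 49 in the 200 bp upstream, over 10104 peaks, and 20 for the 4586 peaks that lay more than 500 bp away. Start sites of protein-coding genes carried taller peaks, with a median of 36, than those of long non-coding genes, with 21.

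**Figure D2:**
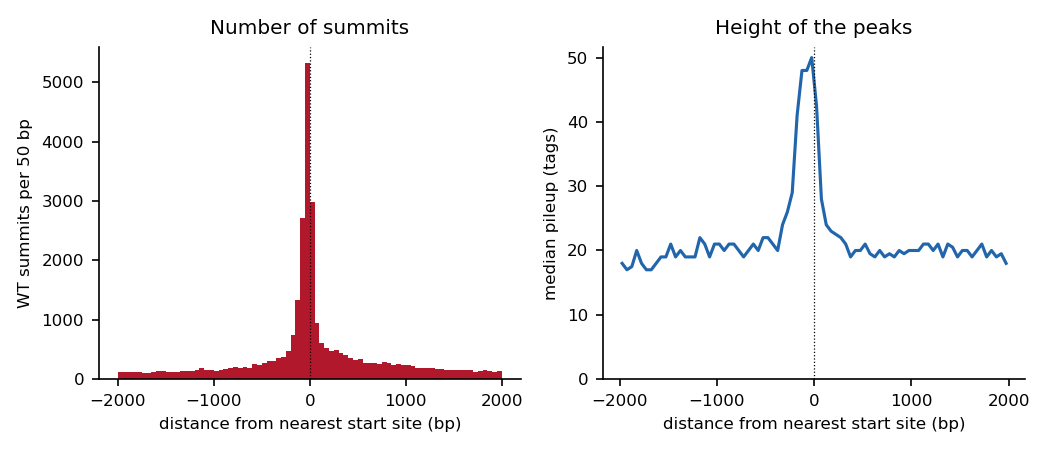
Number of WT summits per 50 bp (left) and median pileup in tags (right) against distance from the nearest start site in bp, with negative values upstream. Both are highest just before the start, and the median pileup lies near 20 beyond 500 bp.

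The highest pileups of the list lay in repeated sequence, and this has to be set aside before the tallest peaks are named. The 31 bases at the summit occurred in more than 1 place of the assembly for 3892 peaks (2.60%), for 26 of the 1000 tallest and for 12 of the 20 tallest. The ceiling of 180 was reached at Gm10800, next to Gm10801 with 172, on chromosome 2. The peaks at Gm10718, Gm10717, Gm10722 and Gm11168 at the start of chromosome 9, with 128 to 155, were 97.1 to 100% repeat-masked, and those at Gm21738 on chromosome 14 (169) and near Rab10os on chromosome 12 (167) were 85.5% and 95% masked. The intronic peak of the non-coding gene Gm33838 (173) was 81.2% masked. A peak of 176 between genes, nearest to Col19a1, shared 98% of its words with the mitochondrial genome, and peaks of 142 and 141 at Gm26917 and AY036118 on chromosome 17 overlapped a ribosomal RNA pseudogene of the RefSeq annotation. The peak with the highest fold enrichment, 36.7, lay in an intron of the adhesion gene Chl1 with a pileup of 169, and its summit occurred in 4 places. How reads of such copies were placed was not tested. Without peaks whose summit occurred in more than 1 place, 89.7% of the 1000 tallest lay at start sites.

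Beyond these, nearly all of the tallest peaks lay at promoters. Of the 138600 peaks with a summit found in 1 place, under 50% masked and without mitochondrial words, 48 of the 50 tallest and 899 of the 1000 tallest lay at a start site. Leaving out the ribosomal RNA pseudogene, the tallest, 145, lay between Hjurp, which loads the centromeric histone, and Trpm8, the cold-sensing channel, whose transcripts start on opposite strands. It was followed by promoters at Ripk2, a kinase of innate immune signalling (128), Ifrd1 with Gm7008 (126), the tyrosine kinase Fer (123), the ciliary GTPase Arl13b, the transcription cofactor Eny2 and 4932412D23Rik (each 121), and Cldnd1, the microtubule-associated Map9 and Pcmtd1 (each 120). None of the 28 lineage factors listed below was among these.

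Promoter sequences are shown for the tallest of these peaks whose 100 bases upstream of the coding start overlap no exon, written on the gene's strand, with GGGCGGGG (Sp/KLF factors), ATTGG (NF-Y), CCGGAAGT (ETS factors) and TGACGTCA (CREB) sought on both strands and put in capitals.
Ripk2, chr4:16163648-16163747, minus strand: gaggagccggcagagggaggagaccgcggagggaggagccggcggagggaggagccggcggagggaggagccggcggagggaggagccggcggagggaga
Fer, chr17:63863915-63864014, plus strand: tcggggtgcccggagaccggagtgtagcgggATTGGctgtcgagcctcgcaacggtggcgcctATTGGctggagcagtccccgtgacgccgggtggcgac
Arl13b, chr16:62847041-62847140, minus strand: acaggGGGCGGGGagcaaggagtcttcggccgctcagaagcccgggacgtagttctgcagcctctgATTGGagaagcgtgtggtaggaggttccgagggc

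The Fer stretch held ATTGG in 2 places, Arl13b held GGGCGGGG and ATTGG once each, and Ripk2, made of a purine-rich repeat, held none. Over all 90265 coding start sites, the 100 bases upstream held GGGCGGGG in 11.4%, ATTGG in 16.2%, CCGGAAGT in 2.65% and TGACGTCA in 1.21%. Among the 51382 with a WT summit within 1 kb the shares were 18.6%, 17.9%, 4.40% and 1.96%, and among the 38883 without one they were 2.03%, 13.9%, 0.334% and 0.219%. Start sites of a gene can share this sequence, so that these sites are not independent.

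Summit windows of 201 bp at start sites gave the same picture. GGGCGGGG lay in 17.8% of them against 1.55% of windows 1 kb to either side that overlapped no peak, CCGGAAGT in 3.69% against 0.254%, and TGACGTCA in 1.84% against 0.101%. In the tallest 10% of promoter peaks ATTGG was held by 51.6%, compared with 26.8% of all promoter peaks and 23.5% of the flanking windows. The windows at start sites were 61.3% GC and the flanks 45.9%, and the part of base composition in these shares was not tested.

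Away from start sites the words of the summits were different, and E-boxes with particular central bases were frequent. Of the 125306 summit windows more than 1 kb from a start site, CAGATG lay in 39398 (31.4%, CI 31.2 to 31.7%), against 14.8% of 237844 flanking windows. CAGCTG lay in 24.7% against 7.90%. At start sites the difference was smaller, with CAGATG in 14.6% of summit windows against 14.0% of flanks and CAGCTG in 17.7% against 9.02%. The Zic-type word CAGCAGG lay there in 10.1% against 5.39%. The other 8 E-box words, which were added after these values had been seen, differed less from their flanks away from start sites, at 0.878 to 1.35 times the flank share. CAAATG, for example, was in 13.6% of the summit windows and 15.5% of the flanks.

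The share with CAGATG followed the height of the peak. It was 43.6% in the tallest 10% of these distal peaks and 24.4% in the lowest, while CAGCTG went from 33.7% to 18.2%. Either word lay in 64.5% of the tallest 10%. The words were also centred on the summit, since CAGATG occurred 2.42 times per bp and 1000 summits within 40 bp of the summit and 0.826 times at 400 to 500 bp, and CAGCTG 1.81 and 0.470 times. CAAATG showed the opposite course, with 0.730 and 0.883. Distal summit windows were 50.7% GC and their flanks 42.7%, 53.1% in the tallest 10% and 49.5% in the lowest.

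**Figure D3:**
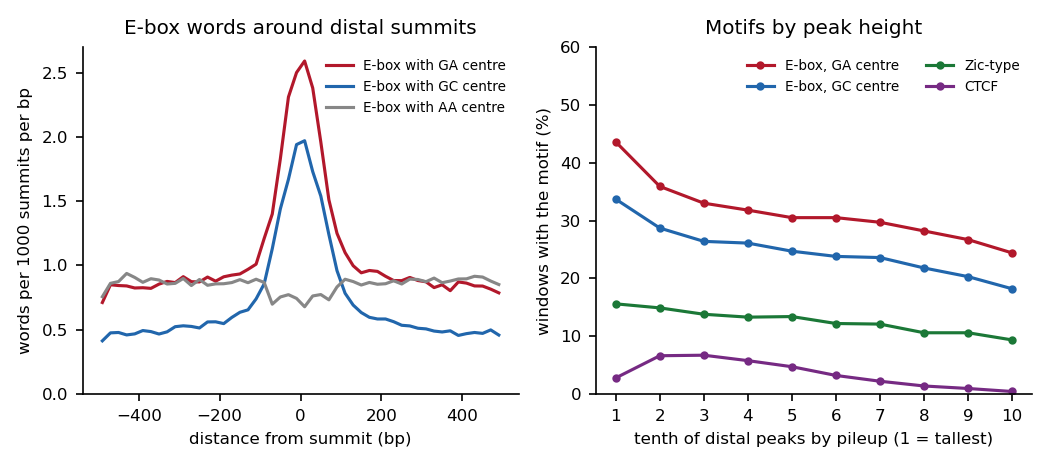
Left, occurrences of 3 E-box words, named in the key by their central bases (red for CAGATG, blue for CAGCTG, grey for CAAATG), per 1000 summits and bp, by distance in bp from summits more than 1 kb from a start site. Right, the share of their 201 bp windows (%) with a motif in each 10% group of these peaks by pileup, 1 being the tallest; CAGATG falls from 43.6 to 24.4% and CTCF is highest in the groups ranked 2 and 3.

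Among the motifs of other factors, that of the insulator protein CTCF stood out at distal summits, with 3.49% against 0.0631% of the flanks. Its share was 2.79% in the tallest 10%, 6.63% and 6.72% in the 10% groups ranked 2 and 3, and 0.447% in the lowest. The Zic-type word CAGCAGG lay in 12.6% against 4.59%, and the nuclear factor I motif, bound by Nfia, Nfib and Nfix of differentiating granule cells, in 0.721% against 0.0706%. GACCACCCA, bound by Gli factors, was rare, in 0.299% against 0.134%. TGANTCA, bound by AP-1 factors after stimulation, was in 6.73% against 6.18%, ACAATGG of SOX factors in 2.85% against 3.15%, and TAATTA of homeodomain factors in 5.26% against 7.13%.

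The tallest peaks with such an E-box, among summits more than 1 kb from a start site that passed the same limits on repeats, are printed as above to show the word in its setting.
Between Cdh8 and Cdh11, pileup 112, chr8:100516039-100516189: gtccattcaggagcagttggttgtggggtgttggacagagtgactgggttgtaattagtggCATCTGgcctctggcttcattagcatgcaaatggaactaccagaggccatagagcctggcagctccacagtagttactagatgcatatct
Nearest start site Gm49223, pileup 108, chr13:84348255-84348405: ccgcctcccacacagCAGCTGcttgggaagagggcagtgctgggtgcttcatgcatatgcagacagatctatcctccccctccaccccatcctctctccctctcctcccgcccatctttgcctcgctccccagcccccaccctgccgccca

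The first of these lay 210 kb from the nearest start site, that of a non-coding gene, in the interval between a pair of cadherin genes, and had a fold enrichment of 18. The windows of 4 other peaks of like height held none of the words. Among them was the tallest distal peak with a summit found in 1 place, under 50% masked and without mitochondrial words. It lay on chromosome 3, 24.8 kb from a start site, with a pileup of 127. Its fold enrichment was 21.9, and whether it has copies missing from the assembly, such as ribosomal RNA repeats, was not tested. Another lay 1.45 kb upstream of Cpeb4, a regulator of translation, with 111. In exons the tallest peaks, after those of Gm21738 (169) and Gm10801 (121), lay in Lars2, a mitochondrial leucyl-tRNA synthetase (107). The Lars2 peak was 396 bp wide with a fold enrichment of 19.6, and whether it has copies missing from the assembly was not tested. In introns, after the repeated ones, peaks of 104 lay in Nol4 and at Gm43072 and a peak of 103 lay 8.02 kb inside Irs1, an adaptor of insulin signalling.

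Genes were ranked by the number, summed width and tallest pileup of peaks in the gene body plus 5 kb upstream, here called the territory. Of 33437 autosomal protein-coding and long non-coding genes, 25316 held at least 1 peak (75.7%), and 19138 had a summit within 1 kb of a start site (57.2%, CI 56.7 to 57.8%). Among the 20807 protein-coding genes these shares were 81.2% and 70.8%, and 4409 of 12630 long non-coding genes had a summit at a start site (34.9%, CI 34.1 to 35.7%). For coding genes that held a peak, the tallest lay at a start site in 75.7%.

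By number the leading genes were among the longest of the genome. Gm20388, a read-through model of 4440 kb that spans many other genes, had 452 peaks, and Fgfr2, a fibroblast growth factor receptor whose annotated model runs over 2966 kb, had 229. They were followed by Macrod2 and the receptor phosphatase Ptprd (each 164), the adhesion protein Lsamp (154), Cntnap2 (131), the presynaptic Nrxn3 (116), the postsynaptic scaffold Dlg2 (115), the phosphodiesterase Pde4d (112) and Tenm2, a teneurin (107). All 100 leading genes were protein-coding, with a median territory of 953 kb and none under 282 kb. By summed width the first 10 were nearly the same genes in another order, with 152 kb in Gm20388, 78.7 kb in Fgfr2 and 43.3 kb in Lsamp, and Auts2, mutated in neurodevelopmental disorders, at 31.6 kb. Of the 100 leading genes by number, 87 were also among the 100 leading by width, but 2 were among the 100 leading by tallest pileup.

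Length and number moved together across genes. The Spearman correlation of territory length with the number of peaks was 0.638 over the 33437 genes, 0.617 with summed width and 0.457 with tallest pileup. Genes are not independent, and longer territories hold more sequence. Per 100 kb, the median of the 2920 territories of at least 100 kb was 7.2 peaks. The densest of these, a list made after the values were seen, was Celf4, a neuronal RNA-binding protein, with 69 peaks or 24.5 per 100 kb, followed by Fam53b (24.3), the polycomb gene Phc2 (22.3), Mgll (22.0), Tspan5 (21.1) and Nfix (20.9). The netrin receptor gene Dcc had 37 peaks in 1102 kb, which was 0.846% of its territory.

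**Figure D4:**
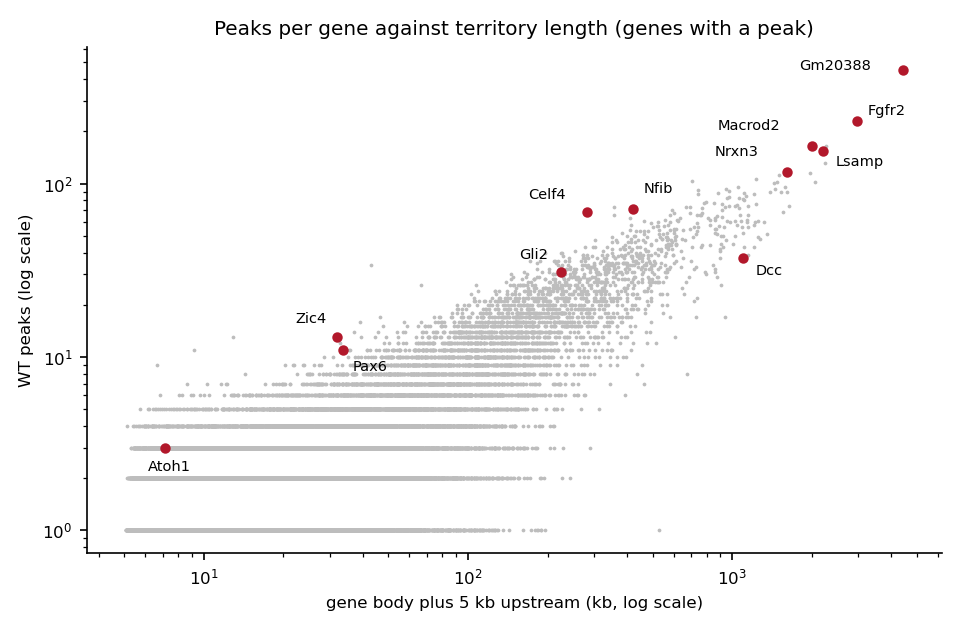
Number of WT peaks in each gene's body plus 5 kb upstream against the length of that territory in kb, both on log scales, for genes with at least 1 peak; red points are named. Gm20388 and Fgfr2 lead with 452 and 229 peaks, and Celf4, with 69 peaks in 282 kb, lies above genes of like length.

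By tallest pileup the leading genes were those of the repeated sequences described above (Gm10800, Gm33838, Gm10801, Chl1, Gm21738, Gm10717, Gm10718 and Gm26870), followed by Hjurp and Trpm8. Of the 100 leading genes, 91 had this peak at a start site and 13 had a summit that occurred in more than 1 place. Their territories were shorter, with a median of 46.3 kb.

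Transcription factors listed for the granule lineage were accessible over much of their short territories. Whether each listed factor, such as Lmx1a, Eomes or Lhx9, is particular to that lineage was not tested. All 28 listed factors held a peak and 27 had a summit within 1 kb of a start site (96.4%, CI 82.3 to 99.4%), beside 81.2% and 70.8% of coding genes. Peaks covered a median of 13.7% of their territories, against 3.03% for all coding genes, 4.42% for those with territories of 10 to 20 kb and 10.2% for housekeeping genes. Sox4, a factor of immature neurons, led with 42.2%, the widest summed peaks (4133 bp) of the 9360 coding territories of up to 20 kb with a tallest summit found in 1 place or no peak. Atoh1 followed with 29.3%, Insm1 with 21.8% and Neurod1, which drives differentiation, with 21.7%. The tallest pileups were those of Etv1 (101), Zic2 (96) and Lmx1a and Neurod1 (each 84), and the lowest those of Barhl1 (36) and Neurod2 (40). Zic2 was the factor without a summit at its own start site, and its peak lay at the start site of another gene.

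In the ranking over all genes, 7 of the 28 factors were in the top 5% by number (25%, CI 12.7 to 43.4%), 10 by summed width (35.7%, CI 20.7 to 54.2%) and 2 by tallest pileup (7.14%, CI 1.98 to 22.6%). Beside them stand 5.08%, 5% and 5.14% of all genes, since ties were kept, and 7.42%, 7.42% and 6.78% of coding genes. Ranked among coding genes alone, 4 of the 28 were in the top 5% by width (14.3%). The lines fell between 13 and 12 peaks, between 4039 and 4034 bp and between pileups of 86 and 85. The factors that passed by number included the nuclear factor I genes Nfib (71 peaks), Nfia (42) and Nfix (22), Meis1 (19) and Meis2 (18).

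Genes of the Sonic hedgehog pathway, from receptors to effectors, had peaks of about the height of other coding genes. All 26 held a peak and 25 had a summit at a start site (96.2%), beside 81.2% and 70.8% of coding genes, with a median tallest pileup of 48 against 44 for coding genes. The exception was Shh itself, whose tallest peak was 18, the lowest of the list, next to the ligand Ihh with 23. Of the receptors, Ptch1 had 13 peaks up to 83, with another of 80 in an intron at a fold enrichment of 10.5, and Boc 16 peaks up to 70. The signal transducer Smo had 4 peaks up to 54. Among effectors and inhibitors, Gli2 had 31 peaks covering 14526 bp, Gli3 had 24 and Sufu had 15. The tallest were at the kinase genes Gsk3b (98) and Prkaca (96), which act beyond this pathway. In the top 5% of all genes there were 7 by number (26.9%), 7 by width (26.9%) and 2 by height (7.69%), beside 7.42%, 7.42% and 6.78% of coding genes, and their median territory was 61.5 kb against 22.6 kb.

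Cell cycle genes and neuronal genes were open in different ways. Each of the 30 cell cycle genes had a summit at a start site, as did 70.8% of coding genes, 29 had their tallest peak there, and their median was 2 peaks and a pileup of 66. The replicative helicase subunit Mcm3 (113), the replication clamp Pcna (88) and the cyclin Ccna2 (87) led, and Aurkb and Cdkn1a (each 37) and E2f2 (21) were lowest. Each of the 30 genes of granule neuron differentiation and synapses also had a summit at a start site, but 17 had their tallest peak there, and they held a median of 16.5 peaks in territories with a median of 121 kb. The guidance receptor Unc5c (109) and the vesicle protein Syt1 (108) led. The receptor subunits Grin2c (19) and Gabrd (15), which belong to mature granule neurons, were lowest, and Gabra6 reached 40. Of the neuronal genes 16 were in the top 5% by number and 16 by width, and of the cell cycle genes 1 and 1, beside 7.42% of coding genes by either measure, with territory medians of 121 kb and 18.8 kb.

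**Figure D5:**
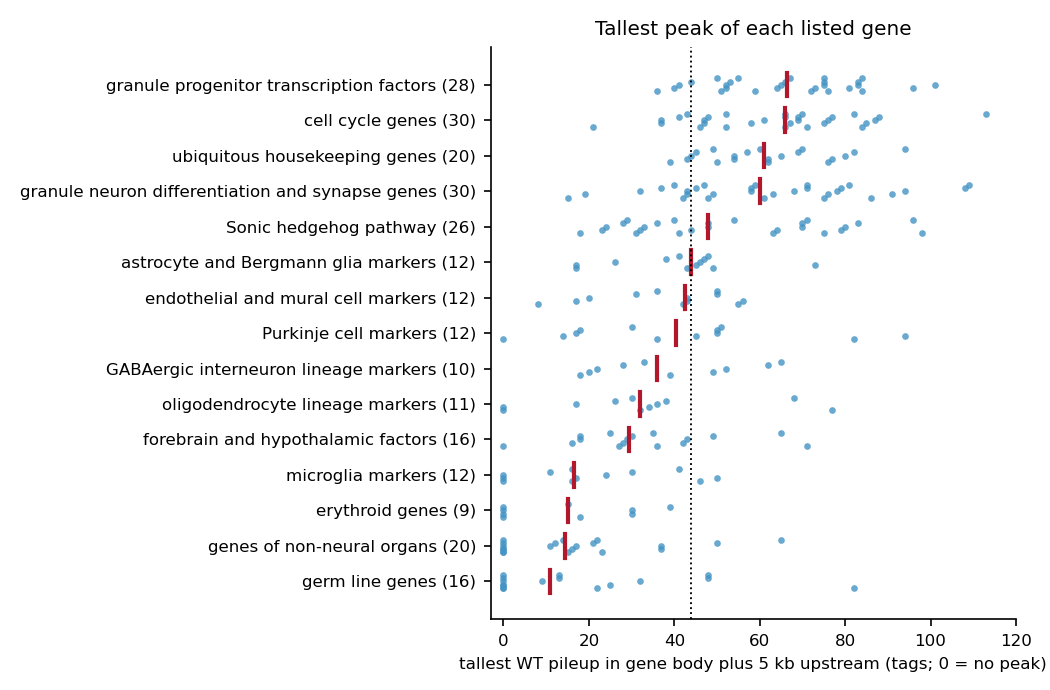
Tallest WT pileup (tags) in the gene body plus 5 kb upstream of each listed gene, 0 where no peak was found; blue points are genes, red bars the median of a list, the number of genes is in brackets, and the dotted line is the median of all coding genes, 44. Granule progenitor transcription factors (66.5) and cell cycle genes (66) have the highest medians, and germ line genes (11) the lowest.

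Marker genes of other cerebellar cells and of blood were also often open. Of the 78 matched to the annotation, 56 had a summit at a start site (71.8%, CI 61.0 to 80.6%), close to the 70.8% of coding genes, but their median tallest pileup was 32.5. Peaks at such genes may come from GNPs or from other cells in the preparation, and these cannot be told apart in pooled bulk libraries. Erythroid genes were open least, with 3 of 9 at a start site, no peak at Hbb-bs, Hbb-bt, Hba-a1 or Hba-a2, and values of 39 at Klf1, 30 at Epor and 18 at Slc4a1. Among microglia markers 5 of 12 had a summit at a start site, there was no peak at C1qa, C1qb or Itgam, and Cx3cr1 (46) and Spi1 (41) were among the highest and Aif1, Csf1r (each 16) and Trem2 (11) the lowest with a peak.

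Glial, vascular and inhibitory neuronal markers were open more often. Of the oligodendrocyte genes 8 of 11 had a summit at a start site, with none at the myelin genes Mog and Mag, 77 at Mbp, 68 at Pdgfra and 38 at Cspg4, and 26 at Sox10 and 17 at Cnp. For astrocytes and Bergmann glia it was 11 of 12, led by Sox9 (73), Fabp7 (49) and Gfap (48), with S100b and Gdf10 at 17. For endothelial and mural cells it was 11 of 12, led by Kdr (56), Pecam1 (55), and Flt1 and Mfsd2a (each 50), with Rgs5 at 17 and Anpep at 8, although 3 of the 12 had their tallest peak at a start site. For Purkinje cells it was 10 of 12, led by Itpr1 (94), Foxp2 (82) and Rora (51), with Pcp2 at 14 and no peak at Aldoc. For GABAergic interneurons it was 8 of 10, led by Kit (65), Gad2 (62) and Slc6a5 (52), with Pax2 at 20 and the vesicular transporter Slc32a1 at 18. Slc6a5 had no summit at a start site. The tallest peak lay at a start site for 4 of 11 oligodendrocyte, 6 of 12 astrocyte, 6 of 12 Purkinje and 4 of 10 interneuron genes. The heights given are thus often not those of promoters.

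Genes of other organs and of the germ line set the low end. In 7 of 20 genes of non-neural organs a summit lay at a start site (35%), beside 70.8% of coding genes. Of the 20, 7 held no peak at all, among them Ttr, Myh6, Ins1 and Krt5. The tallest were Afp (65), Ckm (50), and Alb and Apob (each 37). The lowest with a peak were Pdx1 (12) and Nkx2-5 (11). Of 16 germ line genes 4 had a summit at a start site (25%) and 7 held no peak, among them Sycp1, Prm1, Prm2 and Zp2. Dazl, however, reached 82, and Gdf9 and Tex14 reached 48, while Nobox and Ddx4 (each 13) and Sycp3 (9) were low. Of 16 forebrain and hypothalamic factors 14 had a summit at a start site (87.5%), beside 70.8% of coding genes and 96.4% of the lineage factors. Their median tallest pileup was 29.5, against 44 for coding genes. It was 71 at Tbr1, 49 at Lhx2 and 16 at Emx1, and Fezf2 held no peak. All 20 housekeeping genes had a summit at a start site, with Ywhaz (94), Hspa8 (82) and Eef1a1 (80) highest and Tuba1b (43) and Gusb (39) lowest.

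The longest stretches without a peak held arrays of chemosensory and secretory genes. The longest ran over 3.99 Mb at chr7:19977930-23968241, between Igsf23 and Vmn1r181, and contained 102 coding genes of which 63 encode vomeronasal receptors. The next, 2.77 Mb at chr7:31208759-33982422 between Gramd1a and Scgb2b27, contained 26 coding genes, all of the secretoglobin families. That after it, 2.55 Mb at chr5:93328469-95881036 between Ccng2 and Cxcl13, contained 27 coding genes, 21 of them predicted models. Over the genome, 953 of 1128 olfactory and 294 of 327 vomeronasal receptor genes held no peak in their territories. These lists were made after the stretches had been seen. Among all coding genes, 3921 of 20807 held no peak. A summit at a start site was found for 71 and 8 of the receptor genes (6.29% and 2.45%), beside 70.8% of coding genes. Such arrays hold near-identical copies, and whether reads could be placed there was not tested.

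Peak density ranged from 52.6 peaks per Mb on chromosome 7, which has the longest of these stretches, to 69.1 on chromosome 10, and the share of bases under a peak from 1.78% on chromosome 14 to 2.21% on chromosome 11.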

How the data were processed

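ATAC-seq libraries of WT GNPs were used through 1 deposited list of narrow peaks, which the authors called with MACS2 2.1.0.20150731 on 3 pooled libraries. Per the labels, reads were trimmed with Trim Galore 0.4.1, aligned to mm10 with STAR 2.5.0b and deduplicated with Picard 1.139. Per the file headers, 59670764 tags of 107 bp were read and 50394313 were left, without a control, read shift or replicate-wise calling, at a q-value cutoff of 0.05 and with a 10000 bp background. The study's methods instead describe bowtie and a shift. Pileup is the signal the authors deposited at the summit, fold enrichment their ratio to local background, and the -log10 q values are those deposited by the authors (their p-values were not used). The authors' lists of the other genotypes were counted only, and 0 columns were without a group.

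Coordinates count from 1 in GRCm38. Genes were protein-coding or long non-coding genes of GENCODE M21. A summit was placed, in this order, within 1 kb of a start site, in an exon, in an intron or between genes. A peak overlapping several territories was counted in each. Sequence came from the RefSeq copy of GRCm38.p6, in which 0 peaks passed a chromosome end. A peak was called mitochondrial-like when at least 10% of its 25-base words occurred in the mitochondrial genome. The nuclear factor I, CTCF and MEF2 motifs were searched as consensus words with ambiguous bases on both strands, and MEF2 was in 0.344% of distal windows and 0.429% of flanks. CAGATG does not overlap CAGCTG as a word, but sites can adjoin.

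The members, the 15 gene lists (265 genes, of which 1, Ahsp, was not matched) and the motifs were chosen with earlier results of these data known. The genes named were the 10 leading by each measure, the markers, the 3 highest and 2 lowest of each list by tallest pileup, and those at the tallest peaks and longest gaps. Others are named as examples chosen after their values were seen, and some genes that the rule names are not reported here. Shares are given with Wilson 95% intervals. Steps were tested on simulated intervals with a direct count. Python 3.11.15, numpy 2.4.6, pandas 2.3.3, scipy 1.17.1 and matplotlib 3.10.9 were used.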

Additional observations from a re-analysis of the deposited data

Results flagged for a closer look

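Signal was present outside the autosomes, which were not described above. The WT list held 3309 peaks on chromosome X, with a median pileup of 18 and a tallest of 103, and 36 on chromosome Y, with a median of 22.5. It held 2 peaks on the mitochondrial genome, both at the ceiling of 180 and with a median width of 5820 bp, although the names of the alignments in the header say that mitochondrial reads had been removed. Their fold enrichment was at most 1.67.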

How the results depend on the processing

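Of 34 alternatives, 21 left a share inside the 95% interval of its reported value and 13 did not. The share of peaks at start sites (16.3%) became 20.7% at a -log10 q of at least 5, 13.2% within 500 bp, 14.1% with protein-coding genes alone and 15.4% after peaks within 300 bp were joined. The share of the 1000 tallest peaks at start sites (88.8%) became 35.6% when ranked by fold enrichment, 74.7% by -log10 q and 86.2% with protein-coding genes alone. The share of genes open at a start site (57.2%) became 52.2% at the stricter q, 52.3% within 500 bp and 70.8% for protein-coding genes. The share of lineage factors in the top 5% by width (35.7%) became 14.3% among protein-coding genes alone, where fewer genes make up the top 5%. The share of distal windows with CAGATG (31.4%) became 34.5% at the stricter q and 20.6% within 50 bp of the summit, where flanks held it in 7.57%. The alternative without repeated summits was chosen after seeing the data and left its share at 89.7%.

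No paired analysis was possible because the libraries were pooled before the peaks were called, and leaving out each replicate could not be run for the same reason. Differences between mice, litters or libraries could not be measured. Peaks under the calling cutoff at this depth are not in the list.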

Other observations

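Of the intervals between coding genes, that between Pcdh20 and Pcdh9 held most peaks, 277 in 4542 kb. It was followed by those between Tenm3 and Aga (226), Zeb2 and Acvr2a (211), Celf4 and Pik3c3 (196), and Adgrl2 and Adgrl4 (192). These intervals are among the longest, at 4.34 to 7.85 peaks per 100 kb in the 5 named. The densest intervals of at least 100 kb were those between Cxxc5 and Psd2 (28 peaks, 27.1 per 100 kb), Lrrc74a and Irf2bpl (22.2), and Wnt7b and Ppara (33 peaks, 21.6).

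In windows of 100 kb, 22726 of 24639 held a summit and 84 held at least 20. The window with most peaks, 35, was that on chromosome 11 with Sfi1 and Drg1, and that with most among windows without a repeated summit was in Celf4, with 28. The greatest covered length, 10810 bp in 25 peaks, lay over a cluster of 15 replication-dependent histone genes on chromosome 13, whose copies are near-identical. Among coding genes with territories of up to 20 kb and no repeated tallest summit, the corepressor gene Tgif1 had most peaks, 8, in 14.3 kb.

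After the ribosomal RNA locus the widest peaks included those at the start sites of Spaca6 (2632 bp), the growth factor gene Nrg3 (2572 bp) and the kinase Cdk13 (2371 bp), with pileups of 85, 52 and 94.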
